A study of Homo sapiens with 6 samples.

Results

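The enzymes of glycolysis, of the pentose phosphate pathway and of the malate and pyruvate branch points were followed as a set of 36 genes across 6 arrays. A probe set, the group of oligonucleotides on the array that reports a transcript, was taken as a member where the platform annotation gives it exactly 1 of these genes, under the current or an older symbol, with control sets left out. This gave 84 of 54675 probe sets, for 36 of 19775 named genes, and all 36 genes had at least 1 probe set. The arrays hold total RNA of CL1-0 and CL1-5, cell lines of lung adenocarcinoma that share the parental line CL1, with 3 biological repeats of each. CL1-0 is labelled poorly invasive and CL1-5 highly invasive. Both were kept in RPMI medium with 10% fetal bovine serum and antibiotics, and the labels name no other treatment. Each degree of invasiveness is represented by a single line, so invasiveness and any other property of the line cannot be told apart. The labels do not say that the repeats are separate cultures, so p-values measure the spread between these arrays, which may be technical.

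As background, glycolysis splits glucose into pyruvate in the cytosol. Its pace is set at hexokinase, at phosphofructokinase and at pyruvate kinase, and lactate dehydrogenase turns pyruvate into lactate. The pentose phosphate pathway leaves glycolysis at glucose 6-phosphate, and supplies NADPH and the ribose of nucleotides. Malic enzymes make pyruvate from malate and also yield NADPH or NADH. Many steps have paralogous enzymes that differ in regulation or compartment, and many glycolytic genes are known targets of the hypoxia-inducible factors and of MYC.

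Probe set signals were compared after log2(signal + 6.85), and changes are given as log2 fold change of CL1-5 over CL1-0, which understates the change of dim genes. Each gene was read through its brightest probe set that passed a filter on dim signals. The median signal of an array was 30.2 to 30.9 units. With 3 arrays a line, their number limits the precision. A signal no higher than its array's 40th percentile (between 19.5 and 20.3 units) is called dim here, as a stand-in for background. The log2 ratio of 3′ to 5′ control probe sets for ACTB, a sign of RNA quality, ranged from 0.440 to 1.17 in CL1-0 and from 0.311 to 0.913 in CL1-5 (exact two-sided permutation p = 0.5), and in both lines repeat 3 was the highest. Of 14 markers of lung and airway epithelium, SFTPD, SCGB1A1 and KRT19 were dim on all arrays. The lung lineage factor NKX2-1 averaged 79.1 units in CL1-0 and 68.3 in CL1-5 through its brighter probe set, whereas the keratin KRT18 averaged 46.5 and 4222. The summed signal of the 14 epithelial markers ranged from 699 to 780.1 in CL1-0 and from 5208 to 5905 in CL1-5, a rise carried by KRT18, KRT8 (means 49.4 and 555) and FOXA2 (17.1 and 199.6). Other markers did not follow: EPCAM averaged 29.3 and 10.3, CDH1 41.9 and 35.2, NAPSA 47.9 and 38.4, SFTPC 99.0 and 92.5 and MUC1 117 and 119.6. KRT7 averaged 85.0 and 96.0, and SFTPB 96.5 and 61.8 through a probe set of suffix x. The part of these markers in the results was not tested. Of 4 leukocyte markers, PTPRC, CD14 and LYZ were dim on all arrays. CD3E lay above the 40th percentile on all arrays, with means of 24.6 in CL1-0 and 23.7 in CL1-5. The summed signal of 5 endothelial markers ranged from 103 to 125 units in CL1-0 and from 182 to 193 in CL1-5, with nearly all of the rise in PECAM1 (means 49.8 and 115), while VWF averaged 21.0 and 22.3, TEK 25.8 and 23.1, and CDH5 and KDR were dim on all arrays. The sum of 7 fibroblast markers ranged from 262 to 307 and from 267 to 281. In it COL1A1 averaged 170 in CL1-0 and 167 in CL1-5 through a probe set of suffix x, against 34.1 and 30.7 through another.

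Glycolytic genes were mostly higher in CL1-5, and pentose phosphate genes were lower or did not pass the test. Of 20 genes from hexokinase to lactate dehydrogenase, 15 rose, 3 fell and 2 did not pass the test, with a median log2 fold change of 0.97. Of 6 pentose phosphate genes, 5 fell and 1 did not pass, with a median of -0.65. ENO2, ME1 and ME3 passed the filter only through CL1-5, where they are bright, and are among the members counted as higher. They are also among those counted below as at least 2-fold higher and as not overlapping. All of them enter the median over the members, and ENO2 that of the glycolytic genes. The malic enzymes divided, with ME1 and ME3 up from dim signals and ME2 down. Over all members, 34 of 36 passed the filter, and 21 of them rose and 10 fell by limma's moderated test at an adjusted p under 0.05, with 3 not called. The median over these 34 was 0.73, against -0.03 over all 14828 genes tested. Of all genes tested, 51.6% were called, 23.3% as higher and 28.3% as lower, so being called is common in this comparison. A rise of at least 2-fold was called for 14 members and for 8.51% of all genes, and a fall of that size for 3 members and for 7.6% of all genes. For 32 members the arrays of the lines did not overlap, which held for 58.8% of all genes. Changes computed within each repeat number had the same sign in 3 of 3 repeats for 33 of the 34 members, all but RPIA, and for 75.6% of all genes. For genes whose lines did not overlap, the same sign follows from that lack of overlap and adds nothing to it. Within repeats 1 and 2 alone 21 members rose and 10 fell, as did 3580 and 4645 of all genes, and the members' median was 0.71, against 0.77 within repeat 3.

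**Figure D1:**
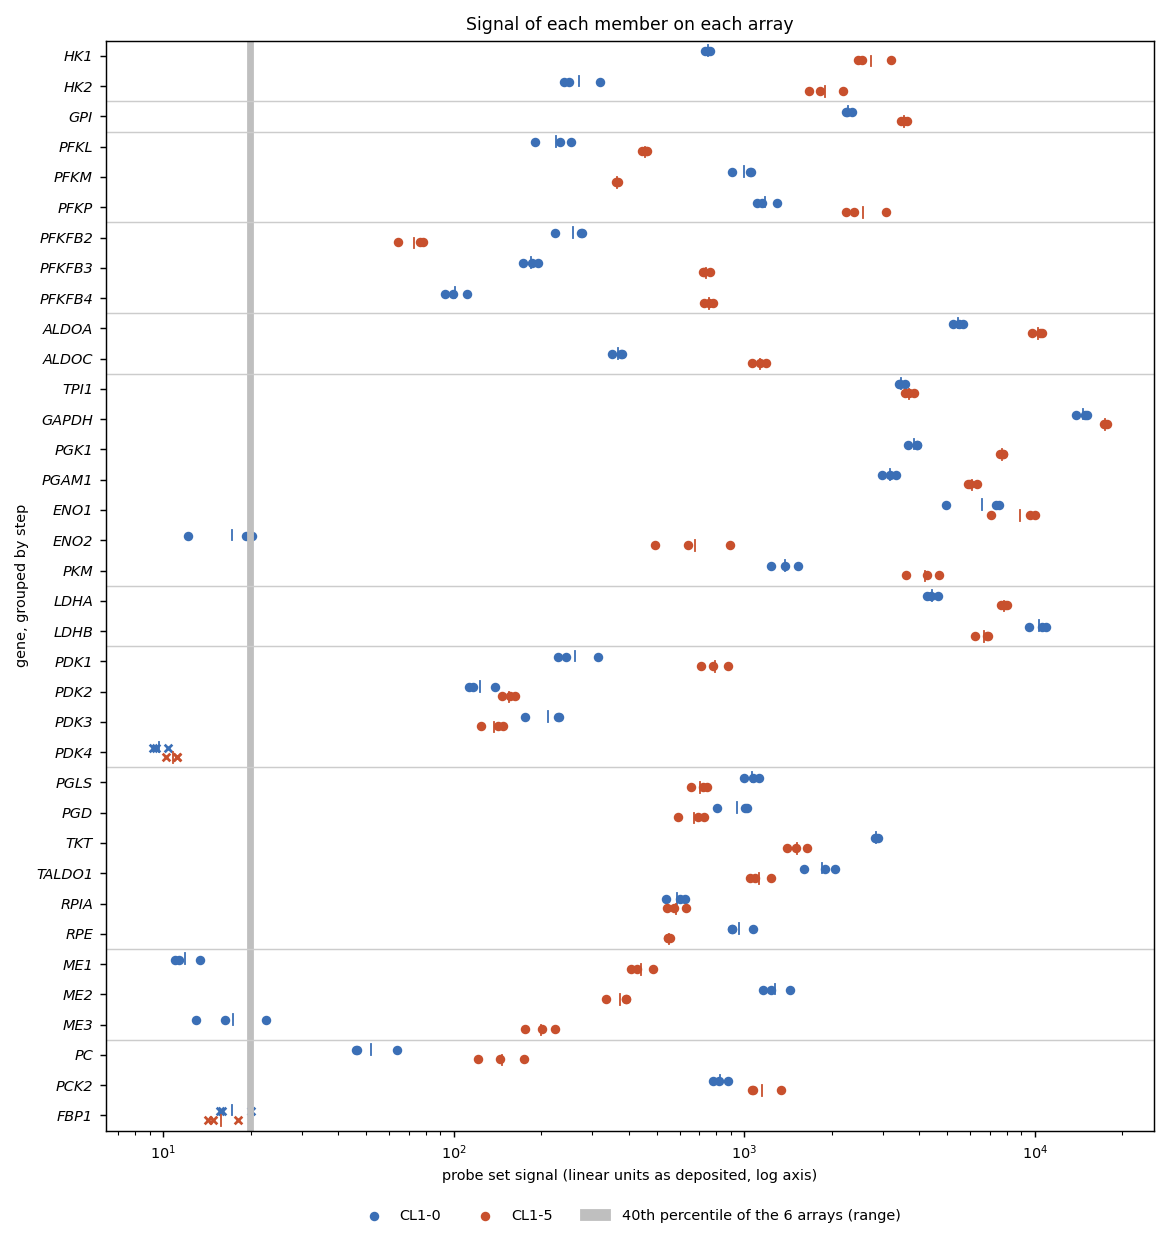
Each point is the signal of 1 gene on 1 array, on a log axis in deposited signal units, with CL1-0 in blue, CL1-5 in red and a vertical tick at each line's mean. Crosses mark PDK4 and FBP1, whose probe sets are dim on all arrays, and the grey band is the 40th percentile of the arrays. ENO2 and ME1 lie at the band or below it in CL1-0 and at 408 units or more in CL1-5, while the points of RPIA overlap.

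**Figure D2:**
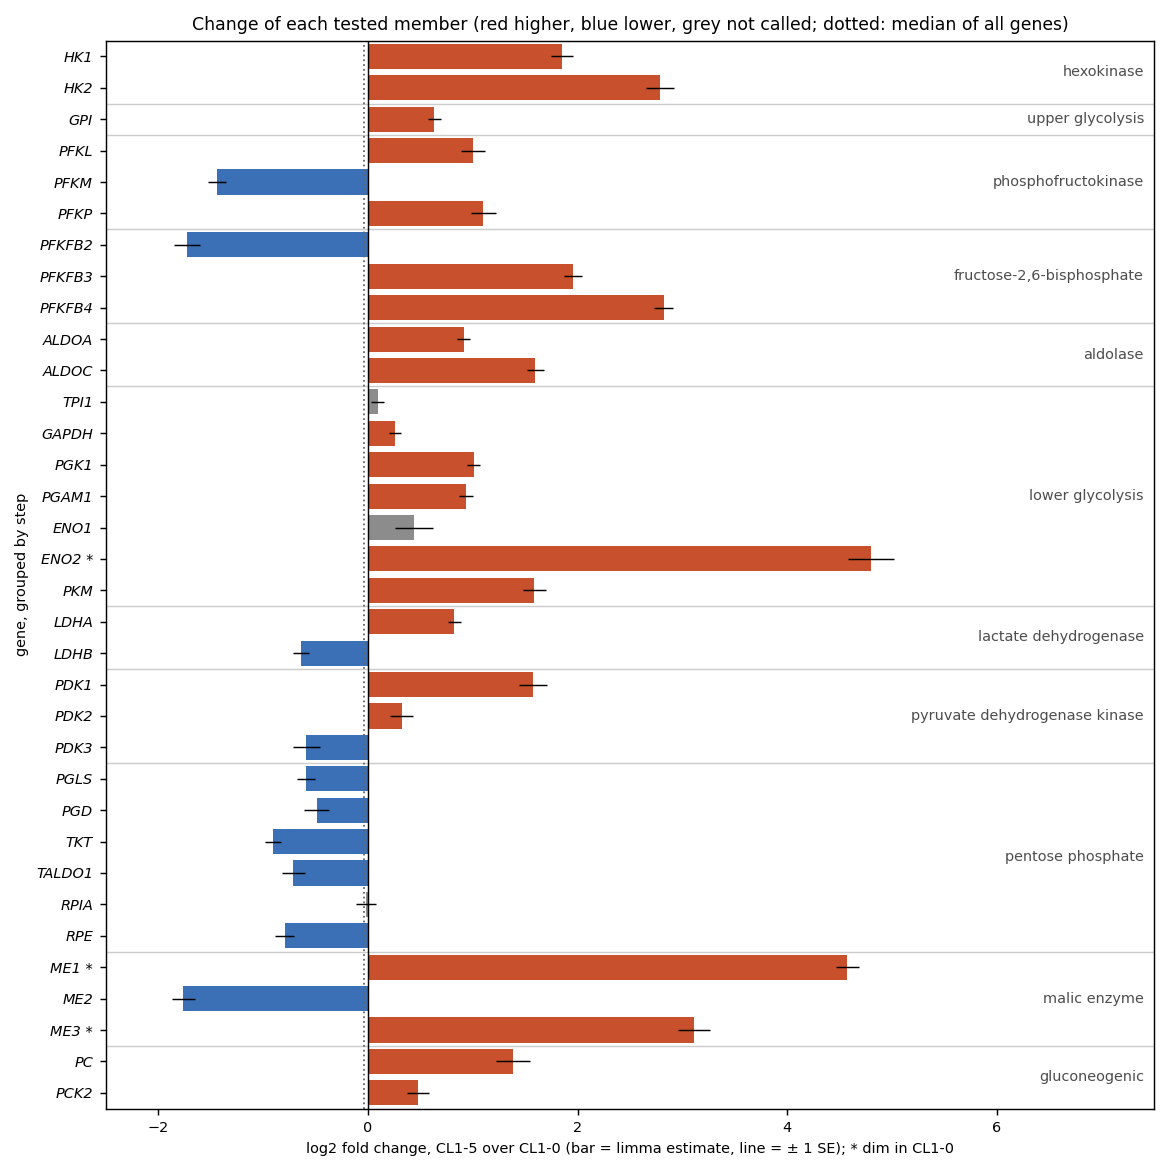
Bars give the log2 fold change of CL1-5 over CL1-0 for the 34 tested genes, with 1 SE, grouped by step of the pathway, and an asterisk marks a gene that is dim in CL1-0. Among the pentose phosphate genes 5 bars point down and RPIA lies at zero, while in the hexokinase and aldolase groups all bars point up.

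Promoter sequences are shown for 6 of the genes that rose, chosen because they hold a match to a searched motif and stand for the sugar phosphorylation, lower glycolysis, lactate and malate steps. Of the members, 35 had a promoter in RefSeq's GRCh38.p14 table, all but PFKFB2. In the 250 bases before the start, 3 motifs were searched on both strands. These were ACGTG, the core of the hypoxia response element, CACGTG, an E-box that also holds ACGTG on either strand, and TGACNNNGC, the core of the antioxidant response element. ACGTG was present in 10 of 21 promoters of members that rose (47.6%) and in 2 of 9 of those that fell (22.2%). It was present in 18.5% of all 35116 promoters, in 22.3% of those of the genes tested and in 22.2% of those of all genes that rose. CACGTG was present in 4 of the 21 and none of the 9, against 6.34% of all promoters, 8.62% of those of the genes tested and 8.70% of those of all genes that rose. TGACNNNGC was present in 5 and 2, against 10.9%, 12.2% and 12.4%. A match is a description of these letters and not a binding site. The sequences run 5′ to 3′ on the gene's strand, with matches on either strand in capitals. They lie at chr2:74833877-74834126, plus strand (HK2), chrX:78103998-78104247, plus strand (PGK1), chr12:6914330-6914579, plus strand (ENO2), chr11:18394313-18394562, plus strand (LDHA), chr11:86672617-86672866, minus strand (ME3) and chr6:83431052-83431301, minus strand (ME1).
HK2: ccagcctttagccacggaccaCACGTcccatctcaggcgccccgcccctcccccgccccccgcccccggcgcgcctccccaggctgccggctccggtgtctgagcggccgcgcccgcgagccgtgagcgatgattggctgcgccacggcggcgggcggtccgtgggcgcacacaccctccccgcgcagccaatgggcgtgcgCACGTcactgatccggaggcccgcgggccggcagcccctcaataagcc
PGK1: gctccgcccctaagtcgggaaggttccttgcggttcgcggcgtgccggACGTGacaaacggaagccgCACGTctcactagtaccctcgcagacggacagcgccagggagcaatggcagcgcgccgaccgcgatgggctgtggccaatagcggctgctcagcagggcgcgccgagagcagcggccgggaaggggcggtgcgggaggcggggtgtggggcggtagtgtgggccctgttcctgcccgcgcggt
ENO2: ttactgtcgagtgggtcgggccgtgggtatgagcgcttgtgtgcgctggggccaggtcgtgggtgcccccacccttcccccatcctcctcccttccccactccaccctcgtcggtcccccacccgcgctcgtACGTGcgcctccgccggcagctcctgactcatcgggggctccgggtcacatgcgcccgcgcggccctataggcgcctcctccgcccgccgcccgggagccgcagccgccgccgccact
LDHA: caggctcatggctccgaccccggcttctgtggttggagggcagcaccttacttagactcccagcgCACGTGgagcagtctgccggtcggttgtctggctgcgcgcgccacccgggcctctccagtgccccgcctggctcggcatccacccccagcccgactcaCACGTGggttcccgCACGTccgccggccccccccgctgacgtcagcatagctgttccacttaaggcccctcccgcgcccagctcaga
ME3: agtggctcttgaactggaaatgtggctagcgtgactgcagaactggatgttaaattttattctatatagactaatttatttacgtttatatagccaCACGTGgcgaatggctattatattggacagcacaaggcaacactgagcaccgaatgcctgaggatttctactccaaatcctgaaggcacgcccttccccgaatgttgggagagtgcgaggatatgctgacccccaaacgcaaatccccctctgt
ME1: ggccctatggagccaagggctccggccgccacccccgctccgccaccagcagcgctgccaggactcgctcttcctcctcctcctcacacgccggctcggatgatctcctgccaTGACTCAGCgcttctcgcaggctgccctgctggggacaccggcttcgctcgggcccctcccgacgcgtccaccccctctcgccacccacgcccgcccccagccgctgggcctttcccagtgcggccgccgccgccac
LDHA holds CACGTG at 2 places and a further ACGTG on the minus strand between them and the start. ME1 has no ACGTG here, and its match, TGACTCAGC, is to the antioxidant response core.

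Hexokinases, which trap glucose in the cell as glucose 6-phosphate, both rose. HK2, the inducible isoform, had 249, 239.8 and 319 signal units in CL1-0 and 1826, 1670.1 and 2183 in CL1-5. All CL1-5 arrays lay above the brightest CL1-0 array, and the log2 fold change was 2.79 (SE 0.14, limma adjusted p = 3.8e-07). HK1, the broadly expressed isoform, had 730.0, 749 and 765 signal units in CL1-0 and 2461, 2551 and 3192 in CL1-5, with a change of 1.85 (SE 0.10, limma adjusted p = 9.5e-07). The lines did not overlap for either gene. HK2 rose by more than HK1, with a difference of changes of 0.93 on the log2 scale and no overlap of the within-array differences between the lines (exact two-sided permutation p = 0.1, the smallest that 3 against 3 arrays can give). With the mean of all passing probe sets per gene this difference turned to -1.02. HK2 has 2 further probe sets, at most 101 units on any array, with changes of -0.24 and -0.06 that did not pass. Of HKDC1, a hexokinase domain gene outside the set, the signal was dim in CL1-0 and at least 3.16-fold higher in CL1-5.

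GPI, which turns glucose 6-phosphate into fructose 6-phosphate, rose by a small step and averaged 2284 ± 54.5 signal units in CL1-0 and 3549 ± 93.6 in CL1-5 (SD, n = 3), with a log2 fold change of 0.63 (SE 0.06). Phosphofructokinase, which commits the sugar to glycolysis, is built from subunits of 3 types, which did not all change in the same direction. The muscle type PFKM had 1054, 1045 and 906 signal units in CL1-0 and 366, 361 and 366 in CL1-5, and fell by 1.44 on the log2 scale (SE 0.09, limma adjusted p = 1.5e-06). The platelet type PFKP had 1148, 1105 and 1296 signal units in CL1-0 and 2235, 2393 and 3066 in CL1-5, a change of 1.10 (SE 0.12, limma adjusted p = 7.8e-05). The liver type PFKL had 231, 253 and 191 signal units in CL1-0 and 463, 445 and 457 in CL1-5, a change of 1.00 (SE 0.11), and its other probe set gave 0.96. In each of the 3 genes the lines were apart on every array. PFKM and PFKP changed unequally, by -2.54 (exact permutation p = 0.1), whereas PFKL and PFKP differed by -0.10 with overlapping arrays (exact permutation p = 0.7).

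The bifunctional PFKFB enzymes make and remove fructose 2,6-bisphosphate, the strongest activator of phosphofructokinase, and they too divided. PFKFB4, a hypoxia-inducible isoform, had 93.5, 99.3 and 111 signal units in CL1-0 and 729, 779.6 and 754 in CL1-5, an increase of 7.06-fold on the log2(signal + 6.85) scale (limma adjusted p = 3.3e-08). PFKFB3, an isoform with high kinase activity that is induced by hypoxia and growth signals, had 186, 173 and 196 signal units in CL1-0 and 724, 727 and 765 in CL1-5, an increase of 3.89-fold (limma adjusted p = 1.9e-07). The 3 arrays of each line lay close together for both genes. PFKFB2, known as the heart isoform, had 276, 222 and 273 signal units in CL1-0 and 64.4, 76.3 and 78.1 in CL1-5, 3.31-fold lower (limma adjusted p = 4.4e-06). The change of PFKFB4 exceeded that of PFKFB3 by 0.86, and that of PFKFB2 differed from PFKFB3 by -3.69, each with an exact permutation p of 0.1. The difference between PFKFB4 and PFKFB3 was 0.15 with the mean of the probe sets. Of 4 PFKFB2 probe sets 3 were called lower, and the remaining one changed by -0.19 and was not called. PFKFB4's dimmer probe set rose by 1.40.

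Aldolase, which splits the phosphorylated hexose, rose in both isoforms. ALDOA, the ubiquitous form, averaged 5449 ± 217 signal units in CL1-0 and 10287 ± 449 in CL1-5 (SD, n = 3), and its 3 probe sets changed by 0.88, 0.92 and 1.20. ALDOC, the form best known from brain, had 380.4, 376 and 349 signal units in CL1-0 and 1131, 1191 and 1064 in CL1-5, and its rise of 1.60 (SE 0.08) exceeded that of ALDOA by 0.68 (exact permutation p = 0.1). TPI1, which interconverts the triose phosphates, did not pass, at 3401, 3568 and 3446 signal units in CL1-0 and 3574, 3844 and 3697 in CL1-5 (log2 fold change 0.09, limma adjusted p = 0.25). Its CL1-5 arrays lay just above its CL1-0 arrays. TPI1 was called higher only with array weights (adjusted p = 0.031) among the alternatives tried.

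The steps from GAPDH to pyruvate kinase rose or did not pass, and none fell. GAPDH, the glyceraldehyde phosphate dehydrogenase often used as a reference gene, had 14917, 15083 and 13836 signal units in CL1-0 and 17695, 17334 and 17417 in CL1-5, a change of 0.26 (SE 0.05, limma adjusted p = 0.0032). All 3 of its probe sets gave 0.24 to 0.26, and the 3 control probe sets for GAPDH, which are no members, were each brighter on every CL1-5 array than on any CL1-0 array. PGK1, the first ATP-making kinase of the pathway, had 3921, 3651 and 3945 signal units in CL1-0 and 7788, 7597 and 7804 in CL1-5. That is a 2.01-fold increase, and all 6 PGK1 probe sets rose, by 0.86 to 1.30 on the log2 scale. PGAM1, the phosphoglycerate mutase, averaged 3165 ± 174 signal units in CL1-0 and 6066 ± 253 in CL1-5 (SD, n = 3), a change of 0.94 (SE 0.07). PKM, the pyruvate kinase of most proliferating tissues, had 1238, 1380.4 and 1529 signal units in CL1-0 and 3604, 4246 and 4696 in CL1-5, a change of 1.59 (SE 0.11, limma adjusted p = 4.7e-06). Its splice forms are not told apart here, and its weaker second probe set rose by 0.62.

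Of the enolases, which make phosphoenolpyruvate, ENO2 was brighter in CL1-5 from a dim signal in CL1-0, and ENO1 was not called. ENO2, the neuronal isoform, had 19.3, 12.2 and 20.3 signal units in CL1-0 and 493, 640.5 and 894 in CL1-5. It was thus dim on average in CL1-0 and at least 24.7-fold higher in CL1-5, with a wide spread between its CL1-5 arrays. It passed the filter only through CL1-5, so no p-value is given for it. ENO1, the ubiquitous isoform, had 7516, 7364 and 4934 signal units in CL1-0 and 9659, 10006 and 7089 in CL1-5 through its brightest probe set, with repeat 3 the lowest in both lines. The lines overlapped, and the change of 0.44 did not pass (limma adjusted p = 0.07). The same value passed once repeat number entered as a block (limma adjusted p = 1.1e-06). That pairing was read from these data and is named by no label. ENO1 also passed without CL1-5 repeat 3 (0.60, limma adjusted p = 0.016) and within repeats 1 and 2 alone (0.40, limma adjusted p = 3.1e-05). A second bright ENO1 probe set had 6526, 6425 and 5772 signal units in CL1-0 and 8516, 8306 and 7866 in CL1-5 and was called higher, at 0.40 (SE 0.07, limma adjusted p = 0.0018). Repeat 3 was also the repeat with the highest 3′ to 5′ ratio of ACTB in each line, and the part of RNA quality in the ENO1 values was not tested. ENO3, the muscle enolase, is outside the set and fell by 1.23.

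Lactate dehydrogenase is a tetramer of LDHA, the form that favours lactate production, and LDHB, the form that favours pyruvate. LDHA had 4628, 4398 and 4259.5 signal units in CL1-0 and 7872, 8045 and 7639.9 in CL1-5, an increase of 0.83 (SE 0.06, limma adjusted p = 5.1e-06). LDHB had 9549, 10624 and 10957 signal units in CL1-0 and 6239, 6911 and 6842 in CL1-5, a change of -0.64 (SE 0.07, limma adjusted p = 8.9e-05), and its second probe set gave -0.82. The lines were apart for both genes, in opposite directions. The difference of changes was -1.46 for LDHB against LDHA, between -1.56 and -1.40 in every alternative in which it was computed (exact permutation p = 0.1). The LDHA promoter printed above holds the most ACGTG matches among the members. Of the 21 promoters of members that rose, 10 hold a match, and those of PFKFB3, PFKFB4 and PDK1 are among those without.

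Pyruvate dehydrogenase kinases switch off the entry of pyruvate into the mitochondrial citrate cycle. PDK1, a known hypoxia target, had 228, 244 and 313 signal units in CL1-0 and 712, 778 and 882 in CL1-5, a rise of 1.58 (SE 0.13, limma adjusted p = 1.4e-05), and its second passing probe set gave 1.53. PDK2 had 117, 139 and 113 signal units in CL1-0 and 146, 162 and 156 in CL1-5, and its rise of 0.32 (SE 0.11, limma adjusted p = 0.034) is the weakest call among the members. Leaving out the first repeat of CL1-0 ended that call (adjusted p = 0.094), and so did leaving out its repeat 3 (0.091) or, in CL1-5, repeat 2 (0.12). Without CL1-5 repeat 3 another PDK2 probe set was the brightest, with a value of 0.05 (adjusted p = 0.87), and within repeats 1 and 2 alone it gave -0.16 (adjusted p = 0.23). PDK3 had 230.1, 229 and 176 signal units in CL1-0 and 148, 142 and 124 in CL1-5 through its brightest probe set, a fall of 0.59 (limma adjusted p = 0.0044). A dimmer PDK3 probe set, at 42.2, 38.1 and 40.3 signal units in CL1-0 and 61.8, 63.1 and 63.4 in CL1-5, was called in the opposite direction, at 0.57 (SE 0.09), so the direction of PDK3 depends on the probe set. PDK4, a kinase of fasting and fat use, was dim on all arrays in all 3 of its probe sets, between 5.33 and 11.2 units. PDK1 rose by more than PDK2 and PDK3, with differences of -1.25 and -2.17 for the latter genes against PDK1 (exact permutation p = 0.1 for each).

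Of the 6 pentose phosphate members 5 fell and none rose. Its oxidative part makes NADPH. PGLS, the lactonase of that part, had 1128, 1069 and 997 signal units in CL1-0 and 744, 718 and 654 in CL1-5, a change of -0.59 (SE 0.09, limma adjusted p = 4.1e-04). PGD, which releases carbon dioxide and a further NADPH of that part, had 1022, 1008 and 807 signal units in CL1-0 and 695, 727 and 593 in CL1-5, a change of -0.49 (SE 0.12, limma adjusted p = 0.0078). In both genes every CL1-5 array lay under every CL1-0 array. PGD has 2 other probe sets, at most 28.1 units on any array, and with the mean of its probe sets it did not pass (-0.11, adjusted p = 0.43).

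The non-oxidative part moves sugar carbons between the pentose phosphates and glycolysis. TKT, the transketolase, had 2834, 2892 and 2814 signal units in CL1-0 and 1503, 1407 and 1649 in CL1-5, a change of -0.91 (SE 0.08, limma adjusted p = 1.3e-05). TALDO1, the transaldolase, had 2047, 1894 and 1603 signal units in CL1-0 and 1233, 1050.3 and 1086 in CL1-5, a change of -0.71 (SE 0.11, limma adjusted p = 5.1e-04). The epimerase RPE had 1073, 911 and 904 signal units in CL1-0 and 548, 556 and 548 in CL1-5, a change of -0.79 (SE 0.09, limma adjusted p = 8.4e-05). These 3 genes fell on every CL1-5 array relative to every CL1-0 array. The isomerase RPIA, which makes ribose 5-phosphate, had 623, 601 and 539 signal units in CL1-0 and 629, 572 and 542 in CL1-5, and its change of -0.02 did not pass (limma adjusted p = 0.91). RPIA was the only member among those tested whose sign differed between repeats. A weaker TKT probe set, at 85.1, 84.4 and 88.6 signal units in CL1-0 and 103, 117 and 141 in CL1-5, was called higher by 0.45 (SE 0.13), against -0.91 and -0.86 in the bright ones. Of the RPE probe sets, 1 more was called lower (-0.52) and 1 was not called (-0.20).

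Malic enzymes convert malate to pyruvate, ME1 in the cytosol and ME2 and ME3 in mitochondria. ME1 and ME3 use NADP, and ME2 mainly NAD. ME1 had 10.9, 13.4 and 11.4 signal units in CL1-0 and 426, 408 and 486 in CL1-5. It was dim on each CL1-0 array, so its increase is given as a bound of at least 16.6-fold. Its second probe set gave 5.78, 4.96 and 5.65 signal units in CL1-0 and 191, 206 and 192 in CL1-5, at least 7.57-fold higher. The remaining ME1 probe set was dim on all arrays. ME3 had 13.0, 16.4 and 22.6 signal units in CL1-0 and 223, 201 and 176 in CL1-5, dim on average in CL1-0 and at least 7.45-fold higher in CL1-5. Both genes passed the filter only through CL1-5, where they are bright, so no p-value is given for them. Its other probe set stayed close to the 40th percentile in both lines and was not called (0.10). ME2 had 1439.6, 1232 and 1164 signal units in CL1-0 and 391, 392 and 335 in CL1-5, a change of -1.76 (SE 0.11, limma adjusted p = 1.6e-06). All 3 ME2 probe sets fell, with values from -1.76 to -1.53. ME2 thus changed in the direction opposite to ME1 and ME3, and the sizes are not set against each other, since ME1 and ME3 are dim in CL1-0. When CL1-5 repeat 1, 2 or 3 was left out with the filter still on 3 arrays, ME1 failed the filter. With the filter on 2 arrays ME1 passed in each case, again only through CL1-5.

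Among the enzymes that feed carbon back, pyruvate carboxylase PC, which makes oxaloacetate from pyruvate, had 45.9, 63.8 and 46.4 signal units in CL1-0 and 122, 144 and 174 in CL1-5. Its change was 1.38 (SE 0.16, limma adjusted p = 1.1e-04), at low signals. PCK2, the mitochondrial phosphoenolpyruvate carboxykinase, had 819, 778 and 879 signal units in CL1-0 and 1073, 1059 and 1333 in CL1-5, a change of 0.48 (SE 0.11, limma adjusted p = 0.0048). The lines did not overlap for either. FBP1, which opposes phosphofructokinase, was dim on all arrays through its only probe set, between 14.2 and 20.0 units.

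**Figure D3:**
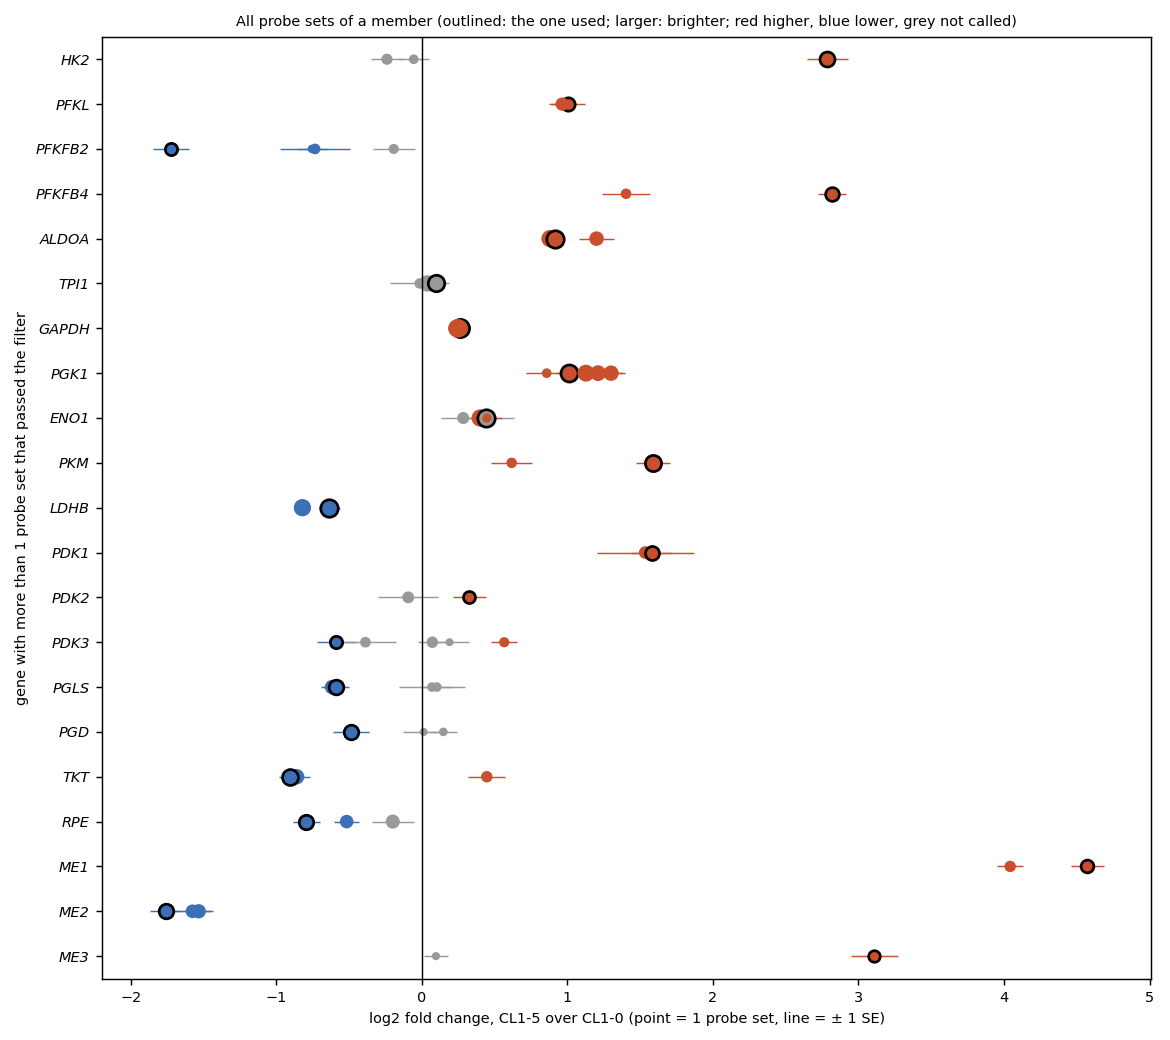
Each point is 1 probe set that passed the filter, for the 21 genes with more than 1, placed at its log2 fold change of CL1-5 over CL1-0 with 1 SE. Outlined points are the probe sets used, and larger points are brighter. PDK3 and TKT have probe sets called in both directions, while all 6 of PGK1 lie to the right of zero.

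Of the 84 probe sets 76 passed the filter. In a test of each probe set on its own 39 of these were higher, 18 lower and 19 not called. Probe sets called in opposite directions occurred in 2 of 21 members with several that passed, PDK3 and TKT, and in 2.65% of such genes overall. ALDOA, GAPDH and LDHB were read through probe sets of the cross-hybridising kind, since no other kind passed. GAPDH, ENO1, PGK1, TPI1, PGAM1 and LDHB are known to have many processed pseudogene copies, so part of their signal may come from near-identical sequences.

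Genes of the neighbouring pathways were taken from lists, with 51.6% of all genes called as above. Of 13 tested further glycolytic and gluconeogenic genes 5 rose and 3 fell, with a median of 0.16. HKDC1 and another of those that rose were dim on all CL1-0 arrays. They passed the filter only through CL1-5, where they are higher. G6PC3, a ubiquitous glucose 6-phosphatase, rose by 1.30 (SE 0.12), while TIGAR, a fructose bisphosphatase that diverts sugar into the pentose phosphate pathway, fell, at -0.76 (SE 0.09). Of 6 further genes of pentose metabolism 1 rose, the ribokinase RBKS (0.87, SE 0.13), and 3 fell. These were the phosphoribosyl pyrophosphate synthetases PRPS1 (-1.53, SE 0.15) and PRPS2 (-0.34, SE 0.08) and the deoxyribose phosphate aldolase DERA (-1.48, SE 0.09). The median of this list was -0.20.

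At the entry of pyruvate into mitochondria 2 of 9 tested genes rose and 5 fell, with a median of -0.32. The pyruvate carrier subunits MPC1 (-0.60, SE 0.08) and MPC2 (-1.52, SE 0.09) fell, as did the shared dehydrogenase subunit DLD (-0.56, SE 0.07). PDP1, the phosphatase that opposes the PDK kinases, had 399, 368 and 424 signal units in CL1-0 and 2592, 2701 and 2973 in CL1-5, a rise of 2.77 (SE 0.09, limma adjusted p = 2.3e-08). PDP1 and PDK1 thus both rose, with no overlap between the lines. Of 16 tested genes around malate, citrate and mitochondrial NADPH, 3 rose and 8 fell, with a median of -0.34. The falls included the NADP-linked isocitrate dehydrogenases IDH1 (-1.72, SE 0.07) and IDH2 (-1.22, SE 0.09), the aspartate aminotransferase GOT1 (-1.42, SE 0.10) and citrate synthase CS (-1.02, SE 0.12).

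Of 12 tested genes of the hexosamine, serine and glycogen branches 5 rose and 4 fell, with a median of 0.22. Glycogen phosphorylase PYGB (1.95, SE 0.12) and glycogen synthase GYS1 (1.62, SE 0.16) rose, and the hexosamine entry enzyme GFPT1 (-1.12, SE 0.09) and the serine hydroxymethyltransferase SHMT2 (-0.98, SE 0.08) fell. Of 8 known regulators of glycolytic genes 5 rose and 2 fell. HIF1A, the oxygen-regulated subunit of hypoxia-inducible factor, had 2367, 2411 and 2543 signal units in CL1-0 and 7992, 8849.6 and 7590.1 in CL1-5, a rise of 1.73 (SE 0.07). EPAS1, its paralog, rose by 4.84 (SE 0.10) and MYC by 1.06 (SE 0.14). TXNIP, a glucose-induced inhibitor of glucose uptake, rose by 0.61 (SE 0.13). ARNT, the partner of HIF1A, was lower (-0.58, SE 0.10). These are transcript levels, and the part of these factors in the members' changes was not tested.

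**Figure D4:**
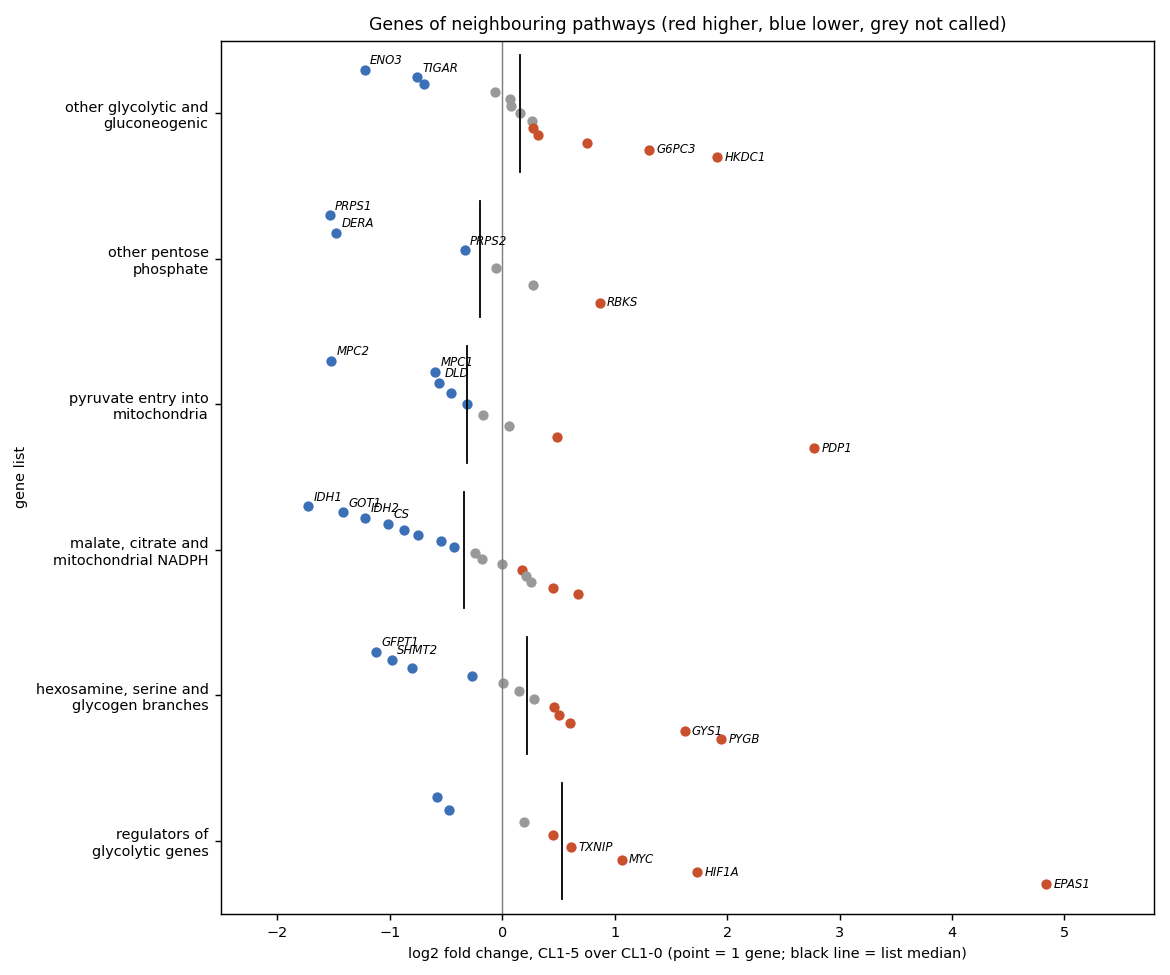
Each point is the log2 fold change of CL1-5 over CL1-0 for 1 tested gene, in 6 gene lists, with red for higher, blue for lower and grey for not called, and a black line at the list median. EPAS1 and PDP1 stand furthest to the right, and most genes of the malate and citrate list lie to the left of zero.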

How the data were processed

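Signals of 6 arrays were used. The authors deposited an intensity per probe set on a linear scale, and the submitters' processing notes name MAS5, without its version or further steps. Gene names came from GEO's platform annotation: 41091 probe sets had 1 symbol, 1801 several and 11721 none. Of those with 1 symbol, 41037 were matched to RefSeq (GRCh38.p14) by gene identifier and took its symbol. To each value 6.85 was added (the 10th percentile over the 6 arrays) before taking log2. Probe sets above the 40th percentile on 3 or more arrays passed. A gene was read through its brightest passing probe set, taking suffix x only where no other passed. Cell type markers were instead read through their brightest probe set of any kind, passing or not. For 14828 genes limma 3.58.1 (R 4.3.3, lmFit, eBayes with trend) compared the lines with no other term, with Benjamini-Hochberg adjustment over all of them. A fold written "at least" sets the brighter line's mean against a floor for the dim line, in each array its 40th percentile or the signal itself if larger. Differences of change between paralogs were compared in 12 pairs by exact two-sided permutation over the arrays, which with 3 against 3 cannot go below 0.1. The fitting steps were tested on simulated data.

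Arrays with the same repeat number deviated together from their line means (correlations 0.475, 0.280 and 0.649 for numbers 1, 2 and 3). The highest correlation between different numbers was 0.288, above that of number 2. As each pair exceeded 0.1 the numbers were taken as pairs in an alternative with repeat as a block; the pairing is read from the data, as the labels name no shared day. The members, gene lists and motifs were chosen with earlier results of these data known. Any member could be named, and of each neighbouring list up to 4 called genes with the largest change, besides MYC, HIF1A and TXNIP. ARNT was named after its value was seen. Other alternatives changed the added constant, filter, scaling, variance model, probe set rule or threshold, or left out arrays.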

Additional observations from a re-analysis of the deposited data

How the results depend on the processing

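Of the 34 members tested, 17 kept their direction and their side of the threshold, or moved by less than the spread between arrays, in all 26 alternatives. Among the rest, HK1, GPI, PFKL, PFKM, PFKFB4, ALDOA, GAPDH, TKT, ME3 and PC departed only within repeat 3 alone, where the sign held. ME1 did so too, apart from alternatives in which it failed the filter. Repeat 3 alone sets 1 array of each line against the other, without a test. ENO1, PDK2, PDK3, PGD, TPI1 and RPIA changed call or sign in a tested alternative. Members called higher numbered 19 to 21 and lower 10 with any 1 array left out, 23 and 10 with array weights, 21 and 8 with the mean of the probe sets, and 20 and 10 at an adjusted p under 0.01. Over all genes these counts ranged from 2692 to 3413 and from 3486 to 4264 with 1 array left out, and testing every probe set gave 5976 higher and 7214 lower. With the repeat block 22 members rose and 10 fell, over all genes 4145 and 5149, and ENO1 was the only member whose call changed. The difference HK2 minus HK1 turned to -1.02 with the mean of the probe sets, and PDK2 to -0.16 within repeats 1 and 2. There PDK2 was read through another probe set, while the one used above gave 0.31 in repeat 1 and 0.22 in repeat 2. With 1 array left out RPIA, not called, ranged from -0.0765 to 0.0320, and was above zero without CL1-0 repeat 1 (0.0264), CL1-0 repeat 2 (0.0012) or CL1-5 repeat 3. PFKL minus PFKP ranged from -0.276 to 0.0339, above zero without CL1-0 repeat 2 or CL1-5 repeat 3 (0.0324). PDK3 was not called with the mean of the probe sets (-0.03, limma adjusted p = 0.79). The mean and single-set settings read different probes. Apart from these changes of probe set, the cause was not tested. Signals near the 40th percentile, as for ENO2, ME1 and ME3 in CL1-0, limit those changes to bounds.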
